A study of Mus musculus with 11 samples.

Results

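Hemoglobin-rich barcodes were chosen in single-cell RNA libraries of mouse brain microvessels as those in which the adult globin genes Hba-a1, Hba-a2, Hbb-bs and Hbb-bt together gave at least 20% of the UMIs. A barcode marks the RNA caught in 1 droplet, and a UMI (unique molecular identifier) counts 1 captured RNA molecule. Of 66658 deposited barcodes, 61625 passed a minimum of 500 detected genes with no more than 10% mitochondrial UMIs. Of these kept barcodes, 322 (0.523%) were hemoglobin-rich, 229 of 34230 in CADASIL mice and 93 of 27395 in control mice. The barcodes were thus chosen by their globin UMIs, so globin levels are given as a description only. The 4 globin genes did enter the gene test between genotypes given below, but no result is drawn from them there.

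The series compared 6 CADASIL mice (R182C-TgN3, labelled Tg350) with 5 control mice (WT-TgN3, labelled Tg100). Both genotypes carry a human NOTCH3 transgene beside mouse Notch3, with the R182C change in the CADASIL mice and without it in the control mice. The measured level of human NOTCH3 was also higher in most CADASIL mice, as given below. All mice were untreated and of both sexes. In each genotype 3 mice were 6 months old, and 3 CADASIL mice and 2 control mice were 9 months old. The brains were digested to microvascular fragments, which were captured on magnetic beads carrying antibodies against the endothelial protein CD31, digested again to single cells and loaded on a 10x Genomics device with 1 library per mouse. The mice are numbered here within their genotype, and each count is 1 deposited UMI. The labels name 4 batches. Batches 1 and 3 held 2 mice of each genotype, batch 4 held 1 of each, and batch 2 held R182C-TgN3 3 alone. All mice of batches 1 and 2 were 9 months old, and all of batches 3 and 4 were 6 months old. The libraries held 17550806 to 64215050 UMIs, and the median of a kept barcode was 3553.5 to 7775 UMIs. A gene with few RNA copies was therefore missed in many barcodes that may hold it.

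Red blood cells form when erythroblasts fill with hemoglobin, a tetramer of alpha and beta globin chains that each bind heme. After the nucleus is expelled, a reticulocyte enters the blood with the last of its messenger RNA, which is lost within days together with mitochondria and ribosomes, largely through ubiquitin-dependent breakdown and autophagy. Circulating red cells lie in direct contact with the endothelium that lines brain capillaries, and a digest of brain vessels can hold both.

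The label of red-lineage cells was borne out in part. Of the markers Hbb-bs, Hba-a1, Alas2 and Bpgm, the 2 globin genes were part of the rule, so their presence was set by the choice of barcodes. Alas2 and Bpgm were outside the rule, and both were found in these barcodes in each of the 11 mice. However, 314 of the 322 barcodes (97.5%) also held more than 3 UMIs of Cldn5 plus Flt1, which encode the tight-junction protein claudin-5 and a receptor for vascular endothelial growth factor. The median was 70 UMIs of this pair, against 50 in the 40903 kept barcodes that had more than 3 such UMIs and under 1% hemoglobin, called endothelial barcodes from here on. These barcodes therefore carried red-cell RNA together with endothelial RNA, and they are called hemoglobin-rich barcodes rather than erythroid cells.

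Before the results, the barcode sequences were compared between libraries, because 1 droplet cannot belong to 2 mice. Of 65086 distinct barcode sequences, 966 were found in at least 2 libraries. Pairs of libraries of 6-month mice shared 62 to 350 sequences (median 80), pairs of 9-month mice shared 6 to 38 (median 21.5), and pairs of different age shared 5 to 28 (median 10.5). Among the hemoglobin-rich barcodes, 17 had a sequence that was also in another library, and 10 of these had at least 20% hemoglobin there too. Those 10 were shallow, with a median of 964 UMIs against 11384.5 for the other 312, and 9 came from 6-month mice. R182C-TgN3 5 held 5 of them, R182C-TgN3 4 held 3, and WT-TgN3 3 and WT-TgN3 5 held 1 each. Whether such barcodes were the same droplet read in both libraries, or separate droplets with the same sequence, was not tested. The share of hemoglobin-rich barcodes is given below with and without them.

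The promoters of 4 genes with RNA in these barcodes are shown. The main and the minor adult beta globin and an adult alpha globin are part of the rule. Alas2, the first enzyme of heme synthesis in red cells, is outside it. Each line gives the 120 bases before the RefSeq start on GRCm38.p6, 5′ to 3′ on the gene's strand, with searched motifs in capitals. Hbb-bs lies at chr7:103827929-103828048 (minus strand), Hbb-bt at chr7:103813924-103814043 (minus), Hba-a1 at chr11:32283552-32283671 (plus) and Alas2 at chrX:150547297-150547416 (plus). Both strands were searched for ATATAA, the core of a TATA box. The second motif was CCAAT, named by its letters. The third was CACCC, which is bound by Klf1 and related factors, and the last was AGATAA, bound by GATA factors.
Hbb-bs: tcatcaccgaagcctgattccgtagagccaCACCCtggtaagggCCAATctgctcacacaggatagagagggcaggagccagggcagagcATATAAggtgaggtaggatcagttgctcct
Hbb-bt: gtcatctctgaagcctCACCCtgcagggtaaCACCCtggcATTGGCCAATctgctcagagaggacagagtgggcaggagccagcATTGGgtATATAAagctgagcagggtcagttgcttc
Hba-a1: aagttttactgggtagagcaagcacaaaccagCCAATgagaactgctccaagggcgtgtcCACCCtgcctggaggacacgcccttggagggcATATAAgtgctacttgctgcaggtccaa
Alas2: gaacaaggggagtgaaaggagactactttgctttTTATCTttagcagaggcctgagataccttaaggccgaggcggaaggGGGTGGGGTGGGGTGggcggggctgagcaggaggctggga

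The globin promoters shared ATATAA 23 to 30 bases before the start and CCAAT and CACCC farther upstream. Hbb-bt held CACCC at 2 places, and a CCAAT on the minus strand (ATTGG) directly before the CCAAT it shares with Hbb-bs. The Alas2 stretch held none of ATATAA and CCAAT in these letters, but CACCC at 3 places on the minus strand (GGGTG) and AGATAA on the minus strand (TTATCT) 86 to 81 bases before the start. Of 32817 RefSeq promoters of the same length, 4.47% held ATATAA, 21.3% CCAAT, 31.7% CACCC and 4.36% AGATAA. Hbb-bs and Hbb-bt matched at 88 of 119 aligned bases (73.9%), and the stretches of Hba-a1 and Hba-a2 at 117 of 117. A match is a string of letters and no measured binding site.

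In the hemoglobin-rich barcodes the 4 genes gave a median of 33.4% of the UMIs, with a highest value of 80.4%. The median barcode held 11047.5 UMIs, of which 4232 were globin UMIs, and 2618 detected genes. Per 5% step the number of kept barcodes did not break at the threshold: 78 had 15 to 20% hemoglobin and 76 had 20 to 25%. The 5 barcodes just outside had 19.65 to 19.99% with 318 to 1583 globin UMIs, and the 5 just inside had 20.003 to 20.17% with 1362 to 7821. Only 42 of the 322 barcodes reached 50% hemoglobin, and 3 reached 70%. Hemoglobin in the rest of the libraries was scarce, since 54990 kept barcodes had 0 globin UMIs and 515 had between 1% and 20% hemoglobin.

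Another 268 deposited barcodes had at least 20% hemoglobin but fewer than 500 detected genes, and were left out by the gene minimum. Of these, 161 had at least 80% hemoglobin, with a median of 4423 UMIs, 113 genes and 0 UMIs of Cldn5 plus Flt1, and only 1 of the 161 had more than 3 such UMIs. These are used below for comparison. Their median of 3834 globin UMIs was close to that of the hemoglobin-rich barcodes (4232), while their median of 338 other UMIs was far below the 6659 there. The other 107 held 20 to 80% hemoglobin in a median of only 629 UMIs, and 72 of them had a sequence that was also in another library.

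**Figure D1:**
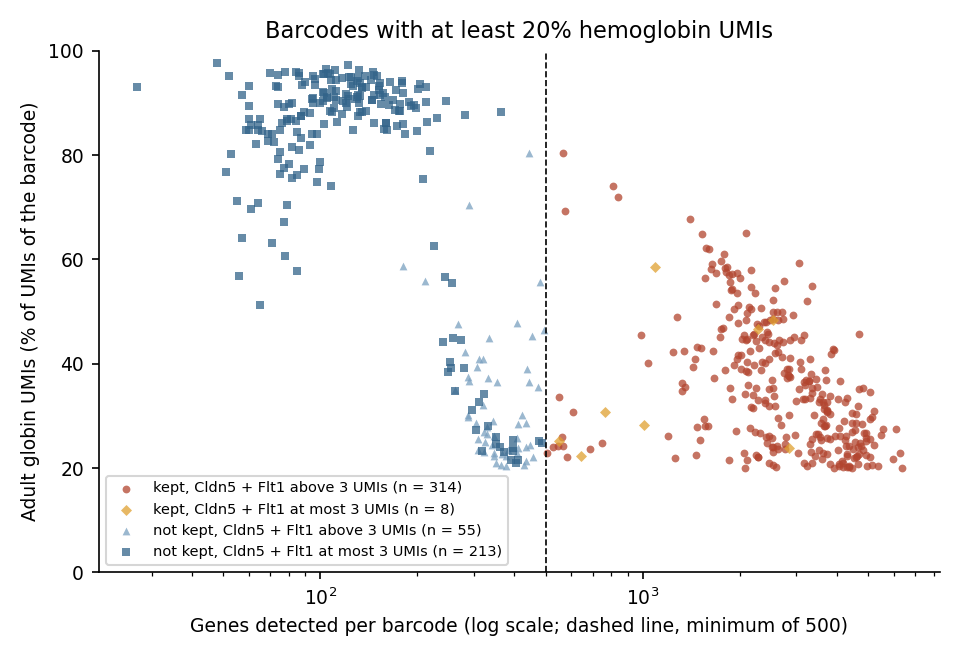
Each point is 1 barcode with at least 20% hemoglobin UMIs, by the number of detected genes (x axis, log scale) and the percent of its UMIs from the 4 adult globin genes (y axis), with the gene minimum as a dashed line. The 322 kept barcodes lie to the right and nearly all hold Cldn5 plus Flt1 UMIs, while the 161 with at least 80% hemoglobin form a separate cloud at the upper left.

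The other RNA in a hemoglobin-rich barcode amounted to more than a typical endothelial barcode of the same mouse. The median of UMIs outside hemoglobin was 2782 to 12274.5 over the mice, against 3275 to 7657 in endothelial barcodes, and the ratio of these medians was 0.849 to 1.79 with a median of 1.34. It was above 1 in 10 of 11 mice, the exception being WT-TgN3 3. Doublets, droplets that caught 2 cells, were scored with Scrublet and not removed. The median score over all mice was 0.0502 in hemoglobin-rich barcodes against 0.0377 in endothelial barcodes. By mouse, the median was lower in hemoglobin-rich barcodes only in R182C-TgN3 5 (0.0191 against 0.0222). Whether these scores can flag a red cell caught together with an endothelial cell was not tested. Removal of the highest scores would have taken 18 hemoglobin-rich barcodes (5.59%) and 6.30% of endothelial barcodes. Of the 18, 11 were in R182C-TgN3 1, 6 in R182C-TgN3 3 and 1 in R182C-TgN3 2, and 0 were in control mice.

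Of the 322 barcodes, 8 had at most 3 UMIs of Cldn5 plus Flt1, and they were not free of other cells either. In R182C-TgN3 3, 3 of them held 62, 18 and 47 UMIs of a 12-gene list of microglia and macrophage genes (Cx3cr1, C1qa, Ctss and others), and 1 in R182C-TgN3 6 held 131. The barcode with 18 also held 36 UMIs of a neutrophil and monocyte list that includes Plac8. The 1 in WT-TgN3 3 held 10 UMIs of the microglial list and 20 of the neutrophil and monocyte list. The other 3, in R182C-TgN3 2, 4 and 5, held 21, 14 and 10 UMIs over 20 endothelial genes. Among the 15 genes highest in these 8 barcodes against all other kept barcodes were the macrophage genes Lyz2 and Cxcl2 beside the red-cell genes Apol11b and Alas2. Others of these 15 were Pfkp (81 UMIs in all 322 barcodes, 22 of them in the 8), S100a6 (140, with 43) and Lcn2 (119, with 17). Each of the 8 barcodes thus held UMIs of a microglial or endothelial list.

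Read by gene pairs for 8 cell types, with more than 3 UMIs of a pair as present, 260 barcodes held endothelial RNA only, 54 endothelial and another type, 2 another type without endothelial RNA, and 6 none of the 8. The pericyte pair Vtn and Abcc9 was present in 13 barcodes (4.04%) against 1.44% of endothelial barcodes, and 10 of the 13 were in R182C-TgN3 3. The smooth muscle pair Acta2 and Myh11 was present in 4 (1.24%, against 3.36%), and the microglial pair Cx3cr1 and P2ry12 in 8 (2.48%, against 2.85%). The choroid plexus pair Ttr and Enpp2 was present in 34 (10.6%, against 8.53%), and the platelet pair Ppbp and Pf4 in 3 (0.932%, against 0.230%). The lymphocyte pair Cd79a and Cd3e was present in 1, and the neutrophil pair S100a8 and S100a9 in 0 of 322, although 2 barcodes held UMIs of it. The pairs were chosen after values of these data were seen.

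Gene levels are given from here on as UMIs per 1000000 UMIs outside the 4 adult globin genes, summed over the barcodes of a class within each mouse, with the mean ± SD over the 11 mice. Comparisons with endothelial barcodes describe the chosen barcodes and carry no test. Over 6827 genes with at least 50 UMIs in the hemoglobin-rich barcodes, the median ratio of the pooled levels to endothelial barcodes was 0.973. A ratio of at least 2 was found for 50 genes (0.732%), a ratio of at most 0.5 for 29 (0.425%), 157 (2.30%) were higher in 10 or 11 of the 11 mice, and 319 (4.67%) were higher in 0 or 1. Apart from the genes of the naming rule, genes are named with their values already seen.

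Heme genes stood higher at the first and last step of the pathway. Alas2 stood at 569 to 1276 over the mice (median 811), against 0.332 to 1.30 in endothelial barcodes. Every mouse was thus far above its endothelial barcodes, with no overlap, and the mean was 843 ± 208 against 0.702 ± 0.314 (n = 11 mice each). Fech, ferrochelatase, which places iron into the ring, stood at 184 ± 71.9 against 28.0 ± 2.95 and was higher in 11 of 11 mice. The steps between stayed near the endothelial level, with 20.5 ± 14.2 against 24.4 ± 2.71 for Alad, 20.7 ± 13.6 against 18.5 ± 2.16 for Urod and 12.4 ± 10.0 against 14.7 ± 1.73 for Cpox. Of the 8 heme genes, 4 had at least 50 UMIs, 2 of them with a ratio of at least 2, and their median ratio was 3.39.

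Alas2 was found in 93.5% of hemoglobin-rich barcodes and in 0.438% of endothelial barcodes, and in 0.332% of the other kept barcodes without endothelial RNA. With each barcode thinned to 1500 UMIs, which left out 10 shallower hemoglobin-rich barcodes and 1889 endothelial ones, these shares became 48.4%, 0.108% and 0.10%. Bpgm was found in 75.2% against 11.2% unthinned, and in 35.3% against 2.93% after thinning.

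Among genes of iron handling, mitoferrin-1 (Slc25a37), which carries iron into erythroid mitochondria, was 245 ± 69.5 against 10.2 ± 1.41 in endothelial barcodes. Glrx5, needed for iron-sulfur clusters, was 105 ± 31.1 against 44.7 ± 3.17, and the ferritin light chain Ftl1 1533 ± 216 against 790 ± 118. All 3 were higher in 11 of 11 mice. The ferritin heavy chain Fth1 (1577 ± 392 against 1557 ± 307) was not, with 5 of 11. The transferrin receptor Tfrc, abundant in erythroblasts and also in brain endothelium, was 317 ± 69.7 against 281 ± 41.9 and higher in 7 of 11 mice. Iscu, a scaffold for iron-sulfur clusters, was 128 ± 29.2 against 77.1 ± 6.16 and higher in 10 of 11 mice. Over the 8 iron genes with at least 50 UMIs the median ratio was 1.39, with 2 at 2 or more.

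Genes of the red-cell membrane were nearly absent from endothelial barcodes where they are erythroid, and present in both where they are shared. Slc4a1, the band 3 anion exchanger, gave 46 UMIs (18.8 ± 13.7) and the red-cell protein Tspo2 62 UMIs (22.6 ± 13.5), each against 1 UMI in all endothelial barcodes. Epb41, band 4.1, was 403 ± 131 against 90.9 ± 11.4. Cd47, which is common to most cells, was 262 ± 82.8 against 275 ± 17.7. Of the 21 membrane genes only 4 had at least 50 UMIs, and 3 of these had a ratio of at least 2.

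Among red-cell enzymes, Bpgm makes 2,3-bisphosphoglycerate, which lowers the oxygen affinity of hemoglobin. It stood at 298 to 1400 over the mice (median 613), against 17.3 to 34.2 in endothelial barcodes, again with no overlap. The antioxidant enzymes Gpx1 (700 ± 212 against 242 ± 52.1) and Prdx2 (262 ± 69.8 against 149 ± 17.3) and biliverdin reductase B, Blvrb (119 ± 27.9 against 52.3 ± 5.80), were higher in 11 of 11 mice. The glycolytic genes Aldoa and Pgam1 and the purine salvage gene Pnp lay within the spread over mice, with Aldoa at 147 ± 48.1 against 171 ± 19.3, Pgam1 at 64.1 ± 12.3 against 66.8 ± 4.42 and Pnp at 162 ± 42.7 against 145 ± 17.1. Of 15 enzyme genes with at least 50 UMIs, 4 had a ratio of at least 2, and the median ratio was 1.04.

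Genes tied to reticulocyte maturation were the longest list, with 10 of 24 at a ratio of at least 2, 14 of 24 higher in 10 or 11 mice, and a median ratio of 1.77. Mkrn1, a ubiquitin ligase, stood at 365 to 1196 (median 735), against 41.1 to 54.3 in endothelial barcodes, without overlap. The ubiquitin-conjugating enzymes Ube2l6 (204 ± 36.0 against 14.5 ± 1.67), Ube2o (134 ± 28.8 against 19.5 ± 1.67) and Ube2c (40.3 ± 18.4 against 0.642 ± 0.365) stood higher as well. Ube2o strips reticulocytes of ribosomes and other proteins. Among autophagy genes, Bnip3l, needed to clear mitochondria, was 538 ± 120 against 249 ± 11.5, and Gabarapl2 393 ± 61.1 against 179 ± 14.5, each higher in 11 of 11 mice. Ubb, which encodes ubiquitin, was 2115 ± 340 against 1415 ± 250, and Sec61g 650 ± 161 against 190 ± 35.0. Isg20, an exonuclease, was 220 ± 51.2 against 15.1 ± 1.92, while Btg2 was level at 849 ± 262 against 859 ± 214.

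In the globin translation list, Tent5c, a poly(A) polymerase, was 332 ± 89.7 against 6.33 ± 1.42 and Eif5 301 ± 36.0 against 233 ± 15.2, both higher in 11 of 11 mice, with a median ratio of 1.29 over 3 genes, while Eif4ebp1, a repressor of translation, was 18.9 ± 11.1 against 17.7 ± 1.87. The lesser-known genes Apol11b (45.5 ± 35.9 against 0.0161 ± 0.0242), Gm10371 (35.0 ± 25.9 against 0.332 ± 0.118), Rec114 (57.0 ± 27.7 against 2.46 ± 0.593), Diaph3 (31.2 ± 18.1 against 2.08 ± 0.775) and Cdr2 (37.2 ± 34.5 against 5.58 ± 0.818) stood among the largest ratios. Apol11b was higher in 9 and the other 4 in 11 of 11 mice.

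Lists for earlier erythroid stages had median ratios near 1, over genes that endothelial barcodes hold as well. Of 12 erythroid transcription factors, 7 had at least 50 UMIs, 0 had a ratio of at least 2 and the median ratio was 1.04. Klf13 was 243 ± 38.5 against 223 ± 14.7, Klf3 157 ± 31.7 against 147 ± 18.4 and Lmo2 294 ± 79.3 against 262 ± 30.9, and endothelial cells express all of these. Bcl11a gave 15 UMIs, of which 12 were in the 8 barcodes without endothelial RNA. The median ratio was also 1.00 over 3 proliferation genes (Pcna 83.4 ± 22.5 against 77.4 ± 10.5, Tubb5 185 ± 70.9 against 203 ± 25.1, Stmn1 126 ± 62.5 against 148 ± 17.7) and over 2 progenitor genes (Cd34 370 ± 50.2 against 339 ± 19.6). Outside these lists, some genes of the cell cycle had higher ratios, as Ube2c above, Nusap1 (21.3 ± 18.2 against 5.57 ± 1.55, higher in 10 of 11 mice) and Cdc25b (22.5 ± 21.8 against 6.74 ± 1.03, higher in 9). Mcm5, of DNA replication, gave 5 UMIs and the myeloid factor Spi1 gave 15. The embryonic and minor globins gave few UMIs, 32 for Hbq1a and 21 for Hbq1b, and 2 of the 6 genes were at 0.

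**Figure D2:**
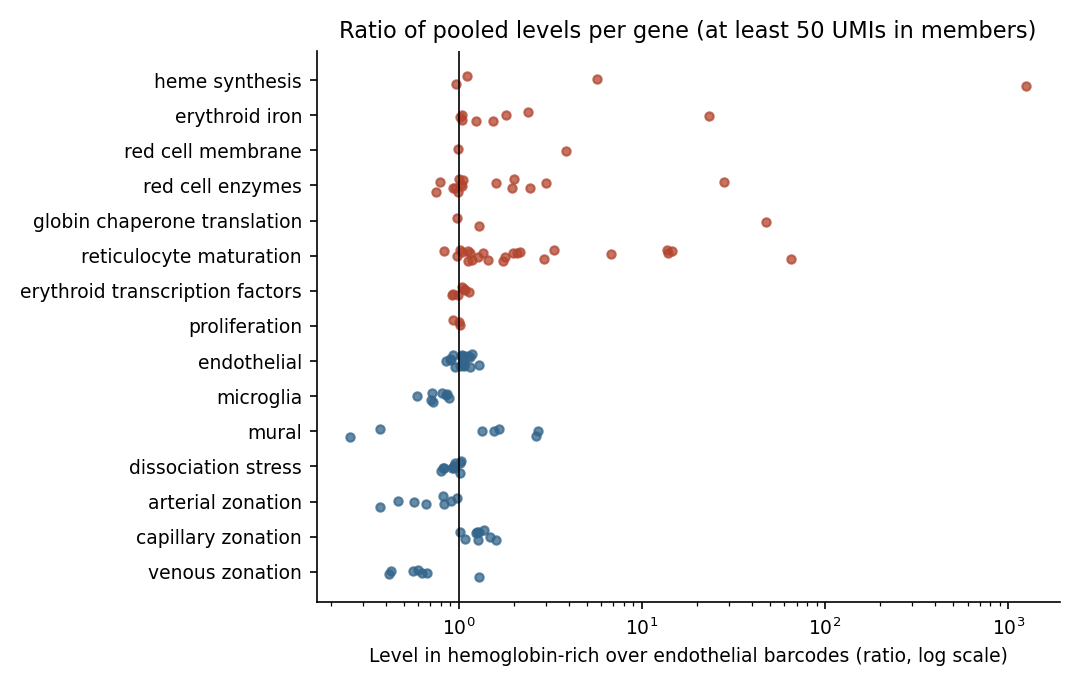
Ratio of the pooled level in hemoglobin-rich barcodes to that in endothelial barcodes for the listed genes reported here with at least 50 UMIs and more than 3 in endothelial barcodes (x axis, log scale), with 1 point per gene and the lists in rows. Heme, iron, enzyme, translation and maturation lists reach far to the right through genes such as Alas2, Slc25a37 and Mkrn1, while transcription factors, proliferation and endothelial genes lie near 1.

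In the 161 barcodes with at least 80% hemoglobin and fewer than 500 genes, red-cell genes stood higher. Alas2 was at 11205 ± 3423, Bpgm at 12175 ± 4984 and Mkrn1 at 9752 ± 4179 (n = 11 mice each). Set against globin instead, the values of the 2 classes lay closer together. Less the part carried by endothelial RNA, Bpgm gave 11.1 UMIs per 10000 globin UMIs in hemoglobin-rich barcodes and 11.7 in the low-gene barcodes. Mkrn1 gave 12.1 and 9.41, and Alas2 15.1 and 10.2. These pooled ratios carry no test. Malat1, a nuclear RNA, stood at 23595 ± 3717 in hemoglobin-rich and 24734 ± 3200 in endothelial barcodes, against a pooled 2669 in the low-gene barcodes.

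**Figure D3:**
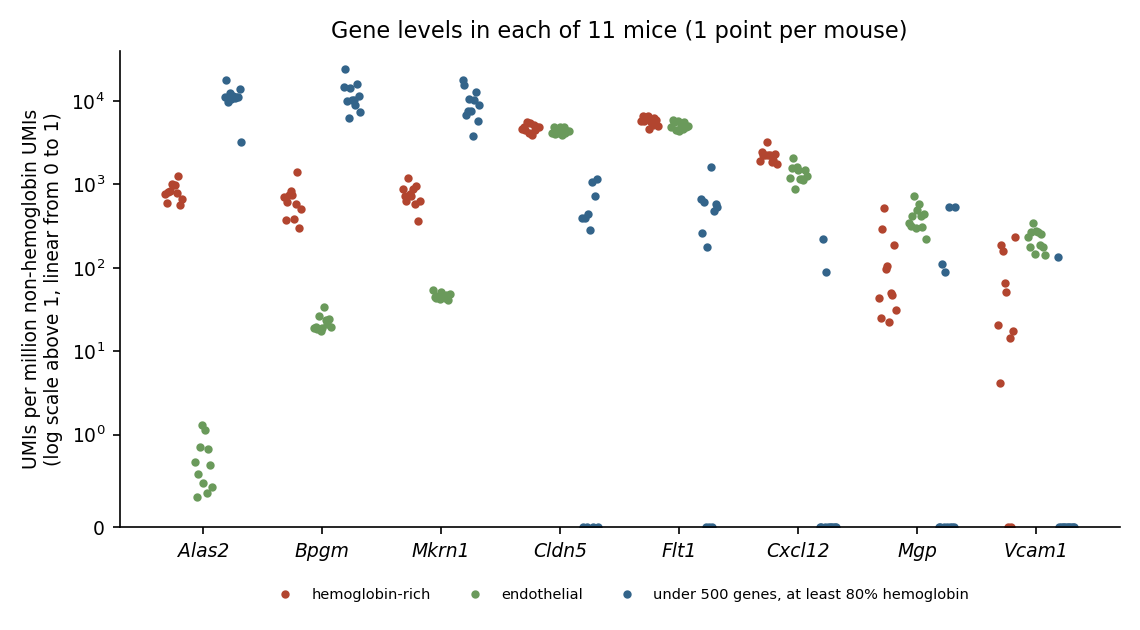
UMIs per 1000000 non-hemoglobin UMIs (y axis, log scale above 1 and linear from 0 to 1) for 8 genes, with 1 point per mouse and class. The red-cell genes Alas2, Bpgm and Mkrn1 step up from endothelial to hemoglobin-rich to low-gene barcodes in every mouse, whereas Cldn5 and Flt1 overlap between hemoglobin-rich and endothelial barcodes and Mgp is lower in hemoglobin-rich barcodes in 11 of 11 mice.

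The endothelial RNA in the hemoglobin-rich barcodes was close to that of other endothelial barcodes. Cldn5 stood at 3907 to 5642 over the mice (median 4815), against 3946 to 4892, and Flt1 at 4620 to 6607 (median 5718), against 4395 to 5915. The ranges overlapped for both genes, although Flt1 was higher than in the endothelial barcodes of the same mouse in 11 of 11. Over the 20 endothelial genes the median ratio was 1.06 and 0 genes passed 2 or 0.5. Kdr (477 ± 113 against 531 ± 62.9) and Ly6a (1340 ± 266 against 1362 ± 163) were level, and Ptprb, at 1658 ± 270 against 1966 ± 240, was higher in 1 mouse only.

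By vessel segment, genes of capillary endothelium were on the high side and those of veins and arteries on the low side. These segment lists were chosen after the values were seen. The median ratio was 1.27 over 9 capillary genes, 0.743 over 8 arterial genes and 0.602 over 7 venous genes, against 0.973 over all genes. Cxcl12 stood at 1760 to 3183 (median 2223), against 876 to 2083, and was higher in 11 of 11 mice, as were Spock2 (2279 ± 253 against 1705 ± 170) and the amino acid transporter Slc7a5 (454 ± 92.0 against 320 ± 55.8). Mgp, of arteries and veins, stood at 22.5 to 519 (median 50.1), against 222 to 718, and was lower in 11 of 11 mice. Vcam1, an adhesion molecule of veins, stood at 0 to 232 (median 20.4), against 141 to 348, and was lower in 10 of 11 mice, the exception being WT-TgN3 5. The von Willebrand factor gene Vwf was 185 ± 103 against 427 ± 113, and Nr2f2, which specifies veins, 59.5 ± 31.5 against 139 ± 21.5.

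The 12-gene mural list was split. Of its 7 genes with at least 50 UMIs, 2 had a ratio of at least 2 (Vtn and Abcc9, of pericytes) and 2 of at most 0.5, and the median ratio was 1.57. Acta2, of contractile smooth muscle, was 9.76 ± 13.6 against 142 ± 90.7 and lower in 11 of 11 mice, as were Tagln (6.47 ± 11.6 against 106 ± 59.3) and Myh11 (6.79 ± 17.0 against 82.1 ± 55.2). The pericyte gene Vtn was at 0 in 6 mice and above the endothelial level in only 3, with 143 against 23.6 in R182C-TgN3 1, 430 against 130 in R182C-TgN3 3 and 243 against 47.3 in WT-TgN3 2. Human NOTCH3 gave 50 UMIs (7.48 ± 16.0 against 9.53 ± 7.44) and mouse Notch3 43 UMIs (6.74 ± 13.8 against 22.5 ± 9.52), and both are mural genes. NOTCH3 was above the endothelial level in 3 of 11 mice and Notch3 in 1. Over the pooled barcodes NOTCH3 had a ratio of 2.07, above 1 although its mean over mice was lower, and R182C-TgN3 3 held 44 of its 50 UMIs and 37 of the 43 of Notch3.

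For the other cell types, 9 microglial genes had a median ratio of 0.809, with C1qc at 45.6 ± 70.6 against 71.3 ± 37.6. The 2 choroid plexus genes had 0.253, with Ttr at 120 ± 84.7 against 1107 ± 1049. The lymphocyte list rested on Ebf1, which endothelial barcodes hold too (ratio 0.952), and the list of astrocyte, oligodendrocyte and neuron genes on Stmn2 (0.980). Slc1a3, of astrocytes, gave 13 UMIs and Mbp, of myelin, gave 4. No platelet or neutrophil and monocyte gene reached 50 UMIs, with 43 for Plac8, all in the 8 barcodes without endothelial RNA, 6 for Ccr2 and 5 for Ly6c2. Genes induced by tissue dissociation, such as Jun (3182 ± 949 against 3228 ± 619), Fos (2062 ± 810 against 2211 ± 546), Jund and Egr1, had a median ratio of 0.948 over 12 genes. The most abundant transcript outside globin, Gm42418, lies at chr17:39846958-39848788 on mm10, overlaps ribosomal RNA and stood at 65180 ± 22059 against 54332 ± 17139.

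The make-up of the globin RNA itself was not fixed by the rule, which used only the sum. Hbb-bs (ENSMUSG00000052305) lies at chr7:103826534-103828096 and Hbb-bt (ENSMUSG00000073940) at chr7:103812524-103813996, both on the minus strand of mm10, and they encode the adult beta chains of mice with the single beta-globin haplotype. Hba-a1 (ENSMUSG00000069919) lies at chr11:32283511-32284465 and Hba-a2 (ENSMUSG00000069917) at chr11:32296489-32297298, both on the plus strand. The copies are near-identical, and of the 90-base windows in the last 400 bases of the transcript 48.9% of those of Hbb-bs were also in Hbb-bt and 71.1% of those of Hba-a1 also in Hba-a2. Reads that cannot be placed uniquely may have been lost or split, so the absolute shares are uncertain.

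Hbb-bt gave 15 ± 1.31% of the adult beta globin UMIs in hemoglobin-rich barcodes (n = 11 mice, range 12.8 to 17.0%). It gave 9.73 ± 1.88% in the 515 barcodes with 1 to 20% hemoglobin, and the hemoglobin-rich barcodes were higher in 11 of 11 mice. With the barcodes binned by hemoglobin, the mean over mice was 4.28 ± 1.32% at 1 to 5% hemoglobin, 7.31 ± 4.30% at 5 to 10% and 11.3 ± 2.31% at 10 to 20%. Below 1% hemoglobin the few globin UMIs gave 10.5 ± 3.25% (under 0.1%) and 5.24 ± 3.75% (0.1 to 1%). Within the hemoglobin-rich barcodes it was 14.5 ± 1.92% at 20 to 30%, 14.9 ± 1.66% at 30 to 50% (n = 11 mice each) and 16.5 ± 2.22% above 50% (n = 8 mice). The minor beta globin thus made up a larger part of the beta UMIs from 1% hemoglobin up to the 20% bound, and the 3 bins above it differed by about their spread. In the low-gene barcodes with at least 80% hemoglobin it was 13.9 ± 2.39%, below the hemoglobin-rich barcodes in 8 of 11 mice.

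Alpha globin gave 29.2 ± 2.36% of the adult globin UMIs in hemoglobin-rich barcodes (range 26.3 to 33.1%), 28.2 ± 2.41% at 1 to 20% hemoglobin and 32.6 ± 2.70% in the low-gene barcodes with at least 80%. The low-gene barcodes were higher in 10 of 11 mice. In endothelial barcodes the few globin UMIs were 43.6 ± 10.2% alpha, higher than in the hemoglobin-rich barcodes in 11 of 11 mice. Hba-a2 made up 42.8 ± 1.21% of the alpha UMIs in hemoglobin-rich barcodes, 42.6 ± 0.794% at 1 to 20% hemoglobin and 43.0 ± 1.28% in the low-gene barcodes, differences smaller than the spread over mice.

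**Figure D4:**
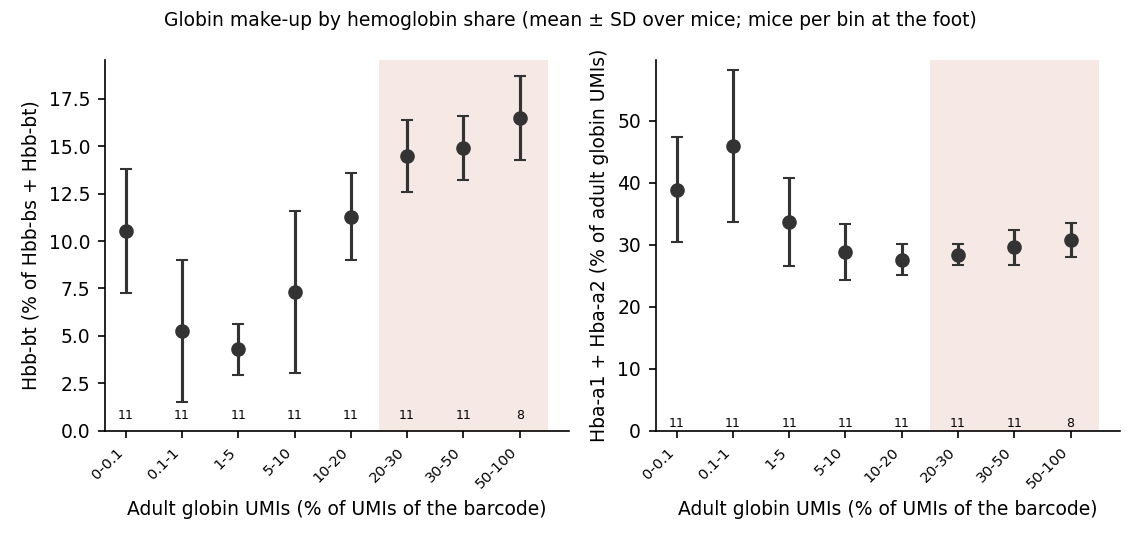
Hbb-bt as percent of adult beta globin UMIs (left) and alpha globin as percent of adult globin UMIs (right) by the hemoglobin share of the barcode (x axis, bins in percent), as mean ± SD over mice, with the number of mice at the foot and the hemoglobin-rich bins shaded. The Hbb-bt share climbs from 4.28% at 1 to 5% hemoglobin to 16.5% above 50%, while the alpha share falls from 45.9% at 0.1 to 1% and is level between 27.6 and 30.7% from 10% upward.

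The first comparison between genotypes was the share of kept barcodes that were hemoglobin-rich. In CADASIL mice it was 0.208% at the lowest, 0.537% at the median and 1.31% at the highest, and in control mice it was 0.183, 0.275, 0.301, 0.552 and 0.405%. R182C-TgN3 3, with 88 of 6705 barcodes, and R182C-TgN3 5, with 30 of 2979, lay above all control mice, and the other 4 CADASIL mice overlapped with them. The mean was 0.681 ± 0.402% (SD, n = 6) against 0.343 ± 0.141% (n = 5), a difference of 0.338 percentage points that did not pass a 2-sided exact permutation test over mice (p = 0.115, Benjamini-Hochberg adjusted p over 5 comparisons 0.357). Without R182C-TgN3 4, the lowest CADASIL mouse, the difference was 0.433 points with an unadjusted exact permutation p of 0.0317, and without R182C-TgN3 3 it was 0.212 points with p = 0.175 in the same exact test. Without the barcodes found in more than 1 library it was 0.310 points (exact permutation p = 0.149).

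Within batches the CADASIL mean was higher each time, with 0.508 against 0.479% in batch 1, 0.607 against 0.229% in batch 3 and 0.543 against 0.301% in batch 4, where each genotype had 1 mouse. Single mice overlapped, however. In batch 1 the control mouse WT-TgN3 4 (0.552%) was above both CADASIL mice, and in batch 3 R182C-TgN3 4 (0.208%) was below WT-TgN3 2 (0.275%). The mean difference with genotypes permuted within batches was 0.212 points (exact permutation p = 0.222). Batch 2 held only R182C-TgN3 3, the mouse with the highest share, so its batch and its genotype cannot be told apart. At 6 months the means were 0.586 against 0.253% and at 9 months 0.776 against 0.479%, and the difference between the 2 ages of -0.0352 points had an exact permutation p of 0.935. The low-gene barcodes with at least 80% hemoglobin were most numerous in the same mice, 40 in R182C-TgN3 3 and 31 in R182C-TgN3 5, against 4 to 22 in the other CADASIL mice and 5 to 16 in control mice. The hemoglobin of the other kept barcodes, a measure of red-cell RNA outside the hemoglobin-rich barcodes, was 0.145 ± 0.0912% against 0.118 ± 0.0265% of UMIs (exact permutation p = 0.535, adjusted 0.619), and it too was highest in R182C-TgN3 3 (0.270%) and R182C-TgN3 5 (0.234%). Of the 511582 globin UMIs it counts, 495502 lay in the 515 barcodes with 1 to 20% hemoglobin. It is therefore mostly a count of barcodes below the 20% bound and no separate measure.

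**Figure D5:**
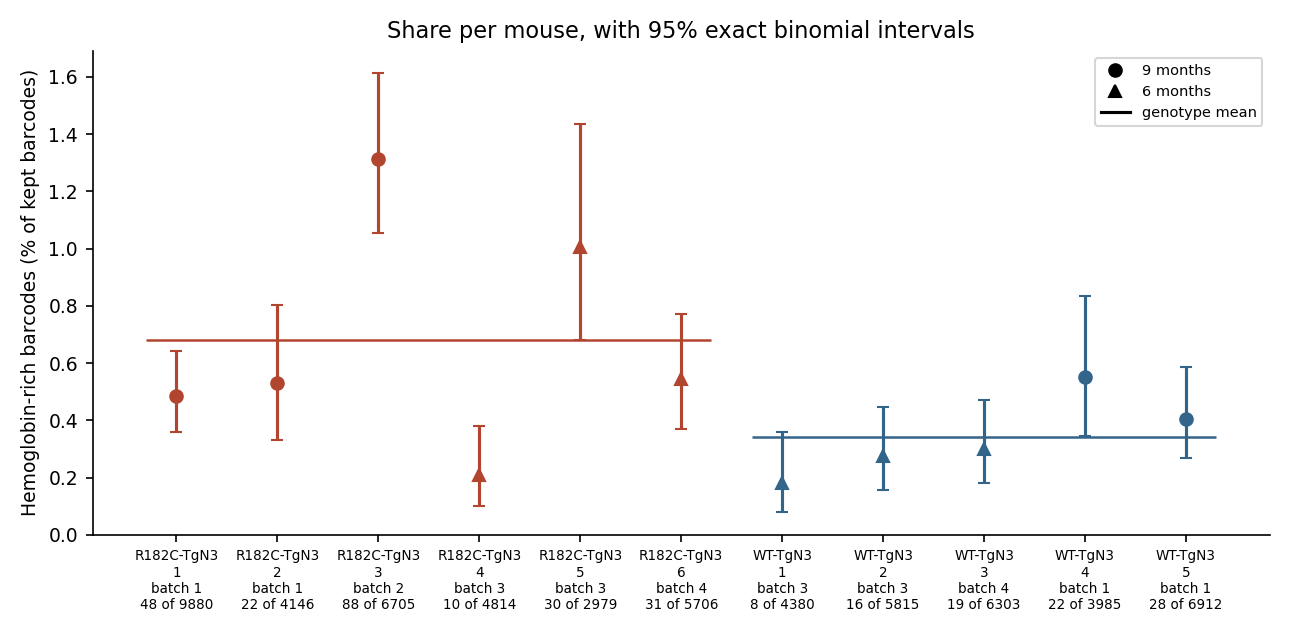
Hemoglobin-rich barcodes as percent of kept barcodes in each mouse (y axis), with 95% exact binomial intervals, which cover counting error only, and the genotype mean as a line. R182C-TgN3 3 (1.31%) and R182C-TgN3 5 (1.01%) stand above the control mice, which range from 0.183 to 0.552%, while the other CADASIL mice overlap with them.

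The other comparisons between genotypes were made within the hemoglobin-rich barcodes of the 7 mice with at least 20 of them, 5 CADASIL and 2 control mice, for which the smallest possible p of a 2-sided exact permutation test is 0.0476. Both control mice were 9 months old and of batch 1, whereas the 5 CADASIL mice came from all 4 batches and both ages. Genotype is therefore partly mixed with age and batch in these comparisons and in the gene test below. The share with endothelial RNA was 97.1 ± 1.71% (n = 5) against 100% in both control mice (exact permutation p = 0.143). The Hbb-bt share of beta globin was 15 ± 1.47% against 13.6 ± 0.563% (exact permutation p = 0.286), and the alpha share 29.6 ± 2.46% against 30.7 ± 3.41% (exact permutation p = 0.619). After Benjamini-Hochberg adjustment over the 5 comparisons these p-values were 0.357, 0.476 and 0.619. With all 11 mice the Hbb-bt shares were 15.1 ± 1.32% and 14.9 ± 1.44% (exact permutation p = 0.879).

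For single genes, the UMIs of the hemoglobin-rich barcodes were summed per mouse and tested across 5125 genes with the quasi-likelihood test of edgeR. At an adjusted p under 0.05, 0 genes (0%) were called, 257 (5.01%) had an unadjusted p under 0.05, and DESeq2 called 0 with 106 at an unadjusted p under 0.05. The red-cell lists outside the rule thus had 0 genes called, in 24 maturation genes, 15 enzyme genes, 8 iron genes, 3 membrane genes, 2 heme genes and 2 translation genes. Their median log2 changes (CADASIL over control) were 0.36, 0.15, 0.37, 0.30, 0.40 and 0.45, against 0.01 over all genes tested. The 4 adult globins were among the 5125 genes, but the rule had used their sum, so their values bear on the choice of barcodes. With these 4 left out, edgeR called 0 of 5226 genes. In simulated counts of this design the test recovered 40% of genes changed 2-fold and 96.9% of those changed 4-fold, with 6 false calls among 5099 genes. The changes were planted only in genes with many UMIs, and all genes were given the same fixed spread between mice. Recovery of genes with fewer UMIs or a wider spread was therefore not measured. Most 2-fold changes would thus be missed with these mice, and smaller changes were not simulated.

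The level of Alas2 was 596 at the lowest, 823 at the median and 1006 at the highest in CADASIL mice, and 988, 780, 1276, 569 and 666 in control mice 1 to 5. The groups overlapped over the 11 mice, and in the 7 mice tested the log2 change was 0.53 ± 0.24 (SE, edgeR adjusted p = 0.99). Bpgm had a log2 change of 0.80 ± 0.29 and Mkrn1 of 0.69 ± 0.23, each with an edgeR adjusted p of 0.99. Both control mice with enough barcodes, WT-TgN3 4 and WT-TgN3 5, lay below the median of the 11 mice for Alas2 and Bpgm, whereas WT-TgN3 3, which had 19 such barcodes and was not in the test, had the highest of all 11 mice. The endothelial genes Flt1 and Cldn5 changed by 0.18 ± 0.19 and 0.04 ± 0.19 (edgeR adjusted p = 0.999 for both).

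The smallest adjusted p belonged to Sdk1, a cell adhesion gene, with a log2 change of -1.54 ± 0.27 (edgeR adjusted p = 0.125), named after its value was seen. Its UMIs per 1000000 tested UMIs were 23.4 to 48.5 in the 5 CADASIL mice and 122 and 106 in the 2 control mice, without overlap. With so few mice some genes separate fully by chance, and how many did was not counted. With age as covariate the smallest edgeR adjusted p of any gene was 0.477. Of the 2 mural genes tested, Rgs5 and Vtn, 0 were called. Rgs5, of pericytes, had 5 to 338 UMIs in CADASIL mice and 2 and 1 in control mice, a log2 change of 5.17 ± 1.16 (edgeR adjusted p = 0.506), and Vtn had 344 of its UMIs in R182C-TgN3 3 and 0 in both control mice tested, while WT-TgN3 2, outside the test, had 34. Without R182C-TgN3 2, edgeR called 2 genes, Rgs5 and Sdk1. Of 9 microglial genes and 20 endothelial genes 0 were called, with median log2 changes of -0.69 and 0.05. The part of mural RNA in the genotype values was not tested. Human NOTCH3 and mouse Notch3 had too few UMIs in these barcodes to enter the test. With no low-count filter, NOTCH3 was among the 35 genes edgeR called, with 2, 1, 44, 1 and 1 UMIs in the 5 CADASIL mice and 0 in both control mice. In endothelial barcodes NOTCH3 stood at 4.61 to 21.8 (median 16.4) in CADASIL mice and 1.37 to 4.86 (median 4.02) in control mice. The R182C change and the level of the transgene thus differ together between the genotypes, and their separate parts were not tested.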

How the data were processed

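The authors deposited whole-number UMI counts per gene and called barcode for each of 11 libraries, made per the labels with Cell Ranger 7.0.0 on mm10, to which the study's methods add human NOTCH3. Nothing was normalized before deposit. Whether ambient RNA or doublets were removed is not given in the sources used here. The hemoglobin-rich barcodes, gene lists and tests were chosen with earlier results of these data known.

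From the counts, barcodes were filtered and classed as stated above, and UMIs were summed per mouse. The genotype tests were 2-sided exact permutation tests of the difference of means over mice (all 462 splits of 6 against 5, or 21 of 5 against 2), and edgeR 4.0.16 in R 4.3.3 (filterByExpr, TMM, quasi-likelihood test, Benjamini-Hochberg adjustment at 0.05) on summed counts, without ribosomal, mitochondrial, Gm and Rik genes as in the study. The edgeR script was run on simulated data first. Nothing in the labels says that mice are littermates, and each mouse is 1 library, so the spread holds animal and library together. Scrublet in scanpy 1.11.5, scipy 1.17.1, numpy 2.4.6, pandas 2.3.3, matplotlib 3.10.9 and Python 3.11.15 were used. Binomial intervals are exact (Clopper-Pearson, 95%) and cover counting error only. Lists without a gene at 50 UMIs got no median ratio.

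Genes named by rule were the 4 adult globins, Alas2, Bpgm, Cldn5 and Flt1, in each list up to 4 genes highest in barcodes without endothelial RNA, the 15 with the largest ratio of those barcodes to the other kept barcodes among genes with at least 50 UMIs, genes past the threshold between genotypes, and NOTCH3 and Notch3. Positions are from GENCODE vM21 (mm10), and promoters from RefSeq (GRCm38.p6). Of the listed genes, Ahsp and Eif1ay are not analysed here. Values of some listed genes are not reported here, although the list counts include them.

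Alternatives were other limits on hemoglobin (10 or 50%), genes (250 or 1000), mitochondrial UMIs (20%) and Cldn5 plus Flt1 UMIs, doublets removed, barcodes with endothelial RNA or shared barcodes left out, DESeq2 1.42.0, its size factors, no low-count filter, all genes, globins left out, covariates, a replicate block, permutation within batches, all 11 mice, and each mouse left out. Replicate numbers in the labels gave 5 pairs of the same age.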

Additional observations from a re-analysis of the deposited data

Results flagged for a closer look

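A single mouse stood apart from the others of its genotype by Dixon's criterion in 4 of the 32 groups of values examined, a criterion that by chance flags about 1 group in 20. The share of hemoglobin-rich barcodes with endothelial RNA was 94.7% in WT-TgN3 3 (18 of 19 barcodes) against 100% in the other control mice. In WT-TgN3 3 the level of Bpgm was also highest at 1400, from barcodes that held a median of only 3937 UMIs. The level of Mgp was 190 in WT-TgN3 4 and that of Vcam1 was 232 in WT-TgN3 5, each far above the other control mice.

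Hemoglobin was also found in barcodes that the gene minimum left out. There were 161 barcodes with fewer than 500 genes and at least 80% hemoglobin, 0.0748 to 0.907% of the deposited barcodes of a mouse, and 107 with 20 to 80%, of which 26 were in R182C-TgN3 4, 32 in R182C-TgN3 5 and 26 in WT-TgN3 3. A sequence shared with another library was found for 25, 18 and 21 of these, respectively.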

How the results depend on the processing

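Of 161 alternative values of the 7 comparisons, 139 kept their direction and their side of the threshold, 16 turned direction and 6 newly passed the threshold. For the share of hemoglobin-rich barcodes, the difference was 0.0205 points with barcodes holding endothelial RNA left out (8 barcodes, exact permutation p = 0.0216), and 0.212 to 0.433 with 1 mouse left out. It was 0.713 points (exact permutation p = 0.0736) over all called barcodes, chosen after seeing the data. With the replicate block, which pairs mice by age and label number, it was 0.212 (exact permutation p = 0.188). For the share with endothelial RNA, a limit of more than 10 UMIs gave -6.17 points (exact permutation p = 0.0476, the smallest possible). The Hbb-bt difference turned to -0.0705 at 10% hemoglobin. The alpha difference of -1.07 turned to 0.294 at 10% hemoglobin, to 0.707 within batches and with the replicate block, to 0.492 over 11 mice and 0.809 over 11 mice within batches, and ranged from -3.48 to 1.34 with 1 mouse left out, positive without WT-TgN3 4. The difference between ages turned to 0.0433 at 50% hemoglobin, 0.0307 at 1000 genes, 0.00438 with endothelial RNA left out, 0.0691 among barcodes with endothelial RNA only and 0.0311 at 2000 UMIs, and ranged from -0.303 to 0.175 with 1 mouse left out. The cause was not tested. edgeR called 35 genes (22 up, 13 down) of 13553 with no low-count filter, 15 (9 up, 6 down) with the replicate block over 7 mice, 0 with that block over 11 mice, and 0 to 2 with 1 mouse left out. The replicate numbers did not pair the mice, since over 4130 genes the deviations of the 5 pairs correlated with r from -0.0330 to 0.0359, and 0 of 10 mice correlated best with their own number. At 50% hemoglobin, with barcodes holding endothelial RNA left out, or with at least 50 such barcodes per mouse, the globin shares and edgeR were not run for lack of mice, nor was the share with endothelial RNA in the first and last of these. Of 217 values for the levels of single genes and the number of hemoglobin-rich barcodes, 197 stayed within their bound and 20 moved past it. The bound was the spread over mice for a gene level and a fold change for the number of barcodes.

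These data limit what can be told. Between 8 and 88 hemoglobin-rich barcodes per mouse leave the shares with wide intervals, only 2 control mice entered the gene test, and with 5 against 2 mice an exact permutation test reaches p = 0.0476 only when the groups separate fully. Every batch held mice of a single age, so differences between ages and between batches cannot be told apart.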
